A study of Mus musculus with 28 samples.

Results

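The genes described here encode the subunits of the transcription factor NF-kB and inhibitor and feedback proteins that its activity induces. There were 10 such genes, the subunit genes Nfkb1, Nfkb2, Rel, Rela and Relb and the inhibitor and feedback genes Nfkbia, Nfkbie, Nfkbiz, Tnfaip3 and Birc3, picked for their roles with earlier results of these data in view. Of the 10, 9 were measured, among 18194 genes tested, and Nfkb1 was not analysed here. Their RNA was followed in retroperitoneal fat pads of mice of the strain spelled C57BK/6J in the labels, 9 weeks old. They received a control diet or feed containing conjugated linoleic acid (CLA) as its trans-10 cis-12 isomer, which is known for reducing fat mass in mice and made up 0.5% of the diet. Pads were taken on days 1, 2, 3, 4, 7, 10 and 17, with 2 Affymetrix arrays for each diet and day and 28 arrays in all. All mice shared the strain and the age, and no genetic change or other agent is named. The pads of 10 mice were pooled for RNA, so the spread between single animals was not measured.

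NF-kB acts as a pair of subunits that share a DNA-binding domain. In a resting cell the pair is held in the cytoplasm by IkB proteins, and the IKK kinase complex releases it by marking the IkB protein for destruction. Several of the genes that NF-kB then switches on encode its own brakes, such as IkB alpha (Nfkbia) and the ubiquitin-editing enzyme of Tnfaip3, so that their RNA is widely read as a trace of NF-kB activity. In fat tissue the pathway is best known from inflammation, in adipocytes as well as in the macrophages that enter the tissue.

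The stretches of DNA just before the annotated gene starts show where the letters of the NF-kB recognition site lie. They are taken from RefSeq (GRCm38.p6), cover the 250 bases before the start, read 5′ to 3′ on the gene's strand, and carry matches to the 10-base kB consensus, searched on both strands, in capitals. They are shown for Nfkbia, the classical feedback inhibitor, at chr12:55492648-55492897 on the minus strand, for Tnfaip3, the member whose arrays separated most completely by diet, at chr10:19015411-19015660 on the minus strand, for Nfkb2, a subunit gene whose probe sets differed in their response, at chr19:46304487-46304736 on the plus strand, and for Birc3, a feedback gene with the lowest adjusted p on day 1, at chr9:7873171-7873420 on the minus strand.
Nfkbia: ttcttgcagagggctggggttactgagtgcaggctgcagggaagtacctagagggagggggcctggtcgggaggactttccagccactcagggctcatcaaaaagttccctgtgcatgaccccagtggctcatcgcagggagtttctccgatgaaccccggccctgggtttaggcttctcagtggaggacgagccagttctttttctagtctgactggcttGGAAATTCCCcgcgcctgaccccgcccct
Tnfaip3: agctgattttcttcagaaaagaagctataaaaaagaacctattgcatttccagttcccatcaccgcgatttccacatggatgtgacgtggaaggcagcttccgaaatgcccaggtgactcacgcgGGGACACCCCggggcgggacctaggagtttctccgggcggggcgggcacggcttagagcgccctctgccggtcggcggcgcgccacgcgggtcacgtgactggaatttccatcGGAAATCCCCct
Nfkb2: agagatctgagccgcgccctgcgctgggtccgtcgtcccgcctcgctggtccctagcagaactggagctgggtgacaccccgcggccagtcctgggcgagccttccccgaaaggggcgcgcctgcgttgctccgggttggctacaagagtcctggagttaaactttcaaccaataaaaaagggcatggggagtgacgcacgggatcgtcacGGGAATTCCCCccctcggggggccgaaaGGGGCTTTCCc
Birc3: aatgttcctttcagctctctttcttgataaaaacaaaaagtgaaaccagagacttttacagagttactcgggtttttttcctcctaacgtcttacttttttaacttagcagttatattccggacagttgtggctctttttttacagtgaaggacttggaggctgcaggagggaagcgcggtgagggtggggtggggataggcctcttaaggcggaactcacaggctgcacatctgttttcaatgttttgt
Nfkbia had 1 match, GGAAATTCCC, from 29 to 20 bases before the start. Tnfaip3 had GGGACACCCC from 125 to 116 and GGAAATCCCC from 12 to 3 bases before it. Nfkb2 had GGGAATTCCC from 39 to 30 with the overlapping GGAATTCCCC from 38 to 29, and GGGGCTTTCC from 11 to 2. The Birc3 window held no match. Of the 9 measured genes, 7 had a window in the table, and 5 of these had a match in at least 1 of their windows, with Rel (GGGAAATCCC from 92 to 83) and Nfkbie (GGGGGATTCC from 106 to 97) beside those printed. Nfkb2 and Tnfaip3 have more than 1 window, and of the 10 windows of these genes 7 held at least 1 match. Of all 32851 windows of this length, 7.25% held at least 1 match and 1.03% at least 2. The 5 genes with a match include Nfkb2, which did not pass the test over all 7 days with the probe set used, and both genes without one, Birc3 and Rela, lie on opposite sides of that test.

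Values are log2 expression values, so a difference of 1 is a doubling in signal, and they ran from 1.90 to 14.18 over all arrays. Where a gene had several probe sets, the one brightest on average was used, and the others are given beside it. Levels are compared only within a probe set, never between genes. Differences are CLA minus control with the standard error (SE) of the limma model, p-values are adjusted over the 18194 genes by the method of Benjamini and Hochberg, and a gene rose or fell where the adjusted p was under 0.05. Over all 7 days the day was the unit (n = 7), and on a single day 2 arrays were set against 2, with the spread taken from all 14 groups. Nothing in the labels says that both arrays of a group came from separate pools. The series record counts 140 mice, which fits 1 pool of 10 for each of the 14 groups. The p-values of a single day, and of contrasts between days, may then measure only technical spread.

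On 3 control arrays, replicate 1 of days 1, 2 and 7, several of these genes stood apart from the 11 other control arrays. Nfkbie lay at 5.47, 6.09 and 5.26 on them, against 3.89 to 4.80 on the others, and Nfkbiz at 6.47, 6.65 and 6.72 against 5.02 to 6.11. Tnfaip3 and Birc3 were also above all 11 others on each of the 3 arrays, and Nfkbia on 2 of them. Nfkb2 went the other way and was below all others on the 3 arrays, at 5.75, 5.93 and 6.25 against 6.27 to 6.60. The difference between the 3′ and 5′ Gapdh control probe sets, a sign of RNA integrity, was 0.62 to 1.33 on the 3 arrays and 0.15 to 0.52 on the other controls. The Actb sets gave 1.63 to 2.77 and 1.1 to 1.81. The Gapdh difference was 1.27 and 1.31 on the CLA arrays of day 1 and 0.32 to 1.2 on the other CLA arrays. The Actb difference was 2.28 and 2.72 on the CLA arrays of day 1 and 0.77 to 1.44 on the other CLA arrays, so on those it reached less high than in the controls. The summed neutrophil markers, 5 measured genes, stood at 9.53 and 9.09 (log2 of the sum) on the apart arrays of days 2 and 7, at 7.26 on that of day 1, and at 6.77 to 8.02 on the other controls. The part of RNA integrity or of neutrophil RNA in the values was not tested, and results that rest on the 3 arrays are given with and without them. Leaving them out was chosen after seeing the data. For a gene that read high on them, it raises the difference on their days by construction. It also leaves 1 control array on each of those days and keeps replicate 1 of the CLA groups.

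**Figure D1:**
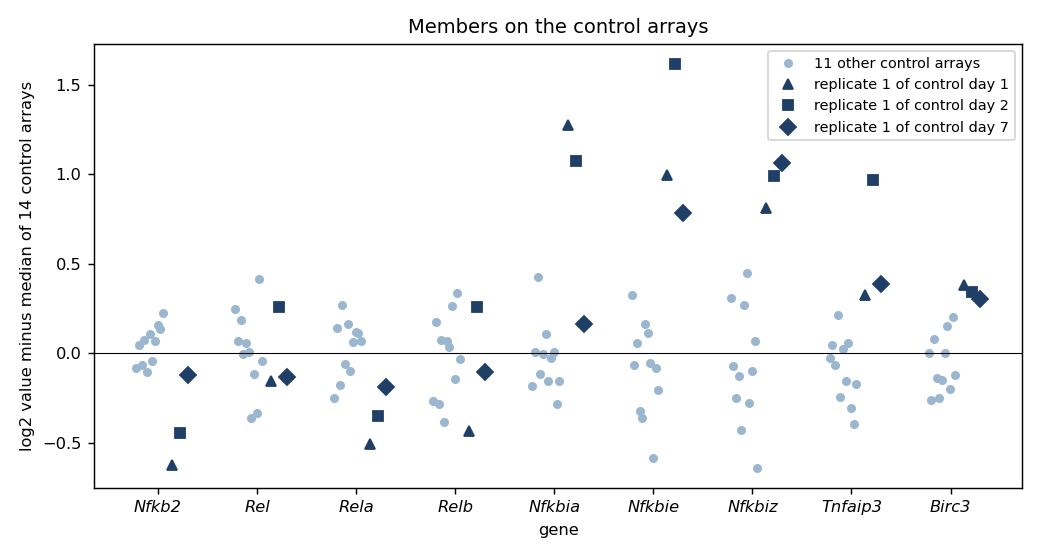
The log2 value of each of the 9 genes on the 14 control arrays, as the difference from their median. Dark symbols are replicate 1 of days 1, 2 and 7, which lie above the 11 other arrays (pale circles) for Nfkbie, Nfkbiz, Tnfaip3 and Birc3 and below them for Nfkb2.

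Over all 7 days, 7 of the 9 genes rose in CLA-fed pads and none fell, where 18.7% of all genes tested rose and 19.8% fell. Their median difference was 0.89 against -0.03 over all genes. All 5 inhibitor and feedback genes rose, with Nfkbie at 1.68 ± 0.15 (SE, adjusted p = 4.95e-05), Tnfaip3 at 1.28 ± 0.11 (adjusted p = 3.98e-05), Nfkbiz at 1.15 ± 0.20 (adjusted p = 0.00192), Birc3 at 0.92 ± 0.15 (adjusted p = 0.00126) and Nfkbia at 0.71 ± 0.14 (adjusted p = 0.00358). Of the 4 subunit genes, Relb rose by 0.89 ± 0.19 (adjusted p = 0.00588) and Rel by 0.58 ± 0.12 (adjusted p = 0.00505). Rela, at 0.20 ± 0.08 (adjusted p = 0.0796), and Nfkb2, at 0.12 ± 0.09 (adjusted p = 0.347), did not pass. Without the 3 control arrays, and without day 1, the number that rose was again 7.

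**Figure D2:**
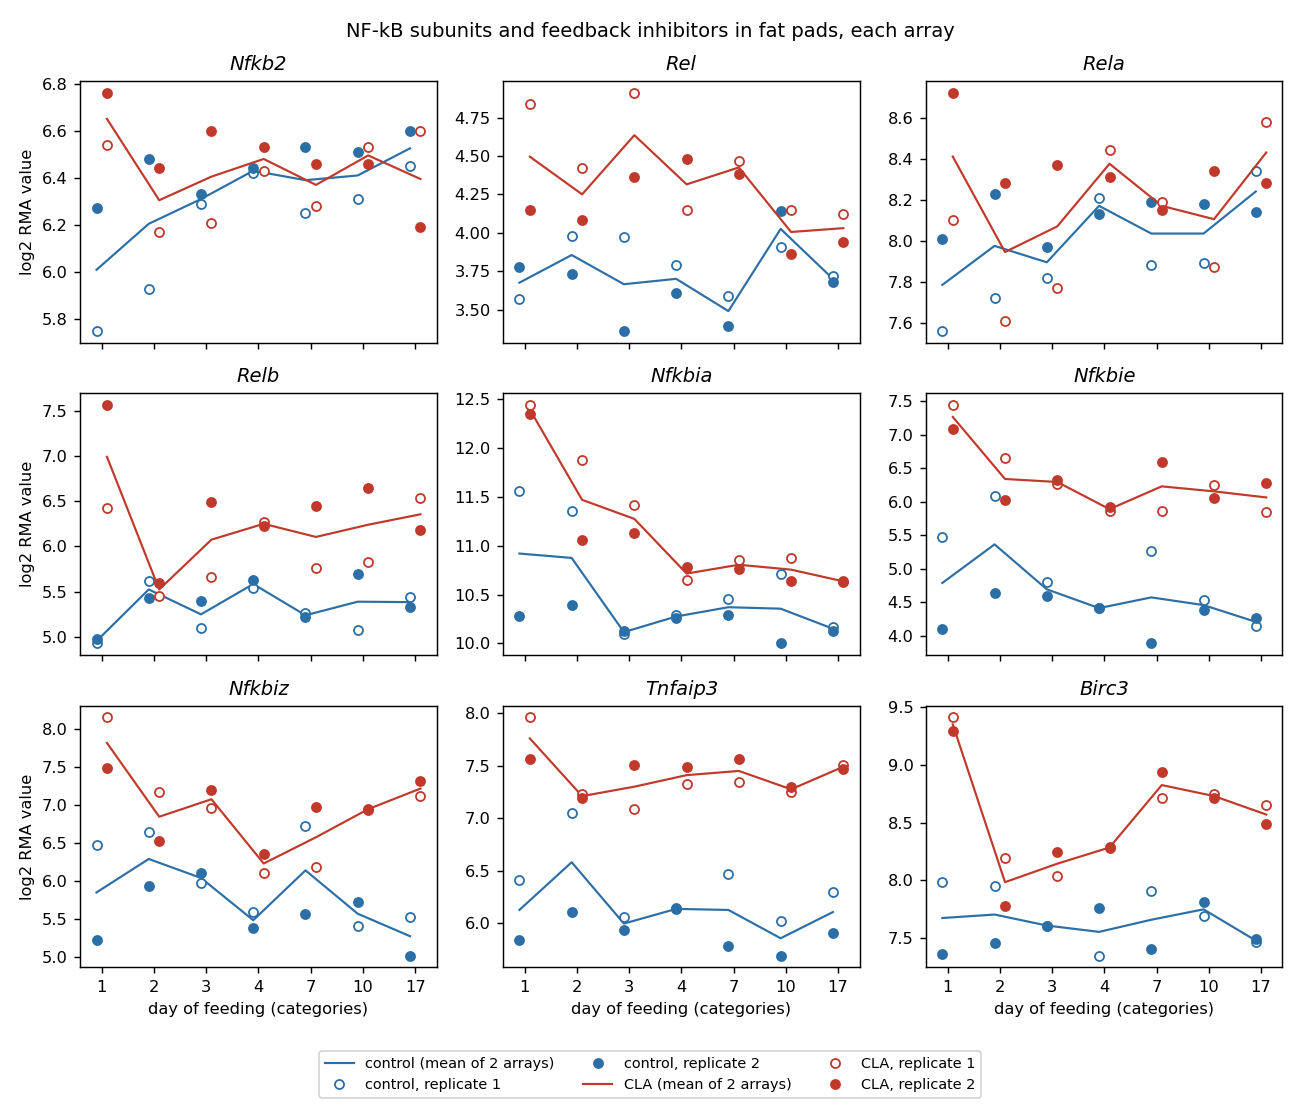
The log2 RMA value of each gene on every array by day of feeding, with CLA in red and control in blue, open circles for replicate 1, filled circles for replicate 2 and lines through the means of 2 arrays (each panel has its own axis). The CLA arrays of Tnfaip3 all lie above its control arrays. The CLA means are highest on day 1 for every gene but Rel and Rela, and the CLA arrays of Nfkb2 and Rela mix with the controls on most days.

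Of the 9 genes, 8 rose on day 1, where 7.96% of all genes rose, and both CLA arrays lay above both control arrays for all 9, as for 22.5% of all genes. The number that rose was 0 on day 2 (4.84% of all genes; 2 had an unadjusted p under 0.05 in limma), 4 on day 3 (11.3%), 3 on day 4 (12.8%), 4 on day 7 (8.74%), 4 on day 10 (10%) and 5 on day 17 (11.5%). The order of the days depended on the fit. Leaving out the 3 control arrays, 6 rose on day 1, and with the 4 arrays of a day fitted alone 2 rose on day 1 and 7 on day 4. None of the 9 fell on any day, while 10.8% of all genes fell on day 1, 5.34% on day 2, 11% on day 3, 11.3% on day 4, 8.57% on day 7, 10.2% on day 10 and 8.78% on day 17. The counts of genes whose CLA arrays both lay above both control arrays were 2 on day 2 (19% of all genes), 7 on day 3 (29.1%), 8 on day 4 (28.5%), 6 on day 7 (23.7%), 5 on day 10 (23.4%) and 7 on day 17 (30.1%).

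**Figure D3:**
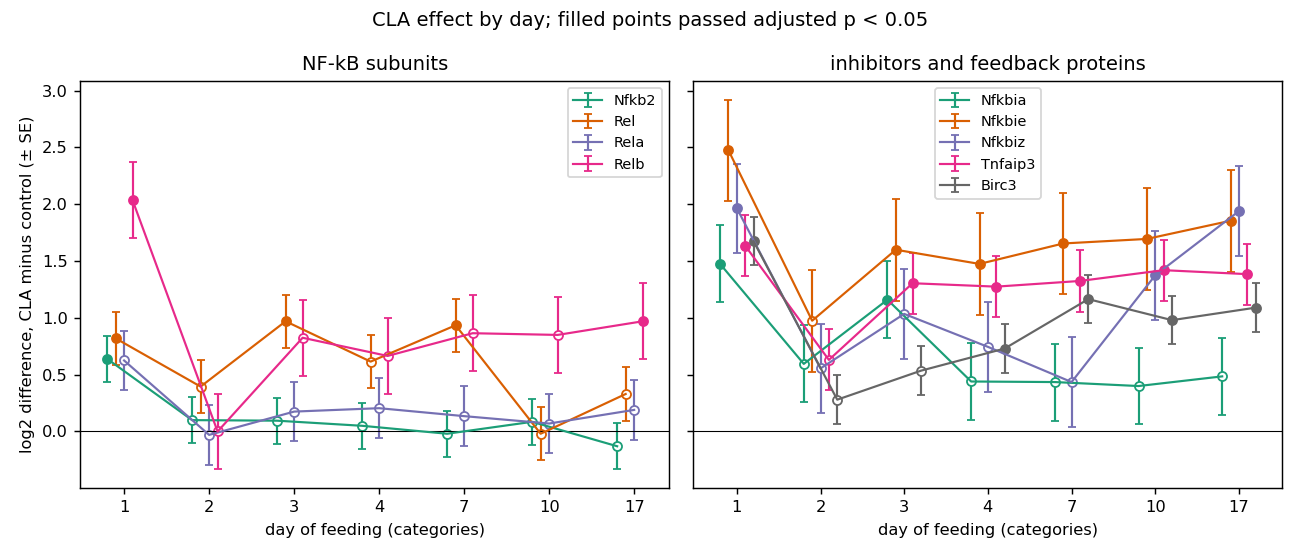
The log2 difference between CLA and control on each day with its SE, for the 4 subunit genes on the left and the 5 inhibitor and feedback genes on the right; filled points passed an adjusted p of 0.05. On day 1 all points but that of Rela are filled and on day 2 none is, and Tnfaip3 and Nfkbie are filled on the 6 other days.

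Among the subunits, Relb encodes the partner that NF-kB uses in its alternative pathway and is itself induced by NF-kB. On day 1 it stood at 6.42 and 7.56 on the CLA arrays and at 4.93 and 4.98 on the control arrays. On day 2 the CLA values were 5.45 and 5.60 and the control values 5.62 and 5.43. The groups were far apart on day 1, although the CLA arrays differed by more than 1 between themselves, and they overlapped on day 2. The difference was 2.04 ± 0.33 on day 1 (a fold of 4.10, adjusted p = 0.000205) and 0.00 ± 0.33 on day 2. From day 3 on, every CLA array was above both controls of its day, with CLA values of 5.66 and 6.49 against 5.10 and 5.40 on day 3, and 6.53 and 6.18 against 5.44 and 5.33 on day 17. The differences on days 3, 4, 7 and 10 lay between 0.67 and 0.87 and did not pass. That of day 17, 0.97 ± 0.33, had an adjusted p of 0.0454 and lost its call in 14 of the 28 fits that left out 1 array.

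Rel encodes c-Rel, a subunit best known from lymphoid and myeloid cells. The mean of its only probe set was 4.02, below the array medians of 4.1 to 4.2 and near the low end of the scale. The CLA arrays of Rel read 4.84 and 4.15 on day 1, 4.91 and 4.36 on day 3 and 4.47 and 4.38 on day 7, against control readings of 3.57 and 3.78, 3.97 and 3.36, and 3.59 and 3.39. All 3 days are without overlap. It rose by 0.82 ± 0.24 on day 1 (adjusted p = 0.0181), by 0.97 ± 0.24 on day 3 (adjusted p = 0.0047) and by 0.94 ± 0.24 on day 7 (adjusted p = 0.00751), and on day 10 its difference was -0.02 ± 0.24. Each of these 3 calls was lost without either of 2 arrays of its day. On day 1 these were replicate 1 of the CLA group (0.48, adjusted p = 0.25) and replicate 1 of the control group, and without the 3 control arrays the day 1 difference was 0.72 (adjusted p = 0.111).

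Nfkb2 encodes the precursor protein that partners Relb. Its CLA arrays stood at 6.54 and 6.76 on day 1 and its control arrays at 5.75 and 6.27, without overlap, a rise of 0.64 ± 0.20 (adjusted p = 0.0321). The lower of these control arrays is one of the 3 that stood apart, and without them the difference was 0.38 (adjusted p = 0.237). From day 2 to day 17 the groups overlapped on every day, with differences between -0.13 and 0.10. The other probe set of Nfkb2, 1425902_a_at, behaved otherwise. Over all 7 days it rose by 0.66 ± 0.11 (adjusted p = 0.00133 over all probe sets), against 0.12 for the set used, 1429128_x_at. It rose on day 1 by 1.08 ± 0.31 (adjusted p = 0.0239) and on day 4 by 1.10 ± 0.31 (adjusted p = 0.0174).

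Rela encodes the main activating subunit, which is regulated largely by its release from IkB proteins rather than by its RNA level. The CLA arrays of day 1 read 8.10 and 8.72 and the control arrays 7.56 and 8.01, so the groups did not overlap, but the difference of 0.62 ± 0.26 did not pass (adjusted p = 0.112). Over all arrays its values ran from 7.61 to 8.72 with CLA (median 8.28) and from 7.56 to 8.34 without (median 8.07). Rela passed on none of the 7 days, while without replicate 1 of the CLA group its day 1 difference was 0.94 and passed (adjusted p = 0.0427).

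Among the inhibitors, Nfkbia encodes IkB alpha, the IkB protein that NF-kB resynthesises first. On day 1 it stood at 12.44 and 12.35 with CLA and at 11.56 and 10.28 on the control diet. On day 3 it stood at 11.42 and 11.13 against 10.10 and 10.13, and on day 17 at 10.63 and 10.64 against 10.17 and 10.13. CLA arrays were above both controls on each of these days, and the CLA arrays of day 1 were the highest of all 28. The rise was 1.48 ± 0.34 on day 1 (adjusted p = 0.00385) and 1.16 ± 0.34 on day 3 (adjusted p = 0.0168), and differences of 0.40 to 0.60 on the other days did not pass. The day 1 value depended on which control array it was set against, at 2.12 without replicate 1 (adjusted p = 0.000212) and 0.84 without replicate 2 (adjusted p = 0.107). Without the 3 control arrays the day 2 difference of Nfkbia was 1.08, against 0.595 with them. That fit left 1 control array on day 2, at 10.39. It kept replicate 1 of the CLA group, which also read higher than replicate 2, at 11.88 against 11.06. The call of day 3 was lost without either control array of that day or without replicate 1 of its CLA group.

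Nfkbie encodes IkB epsilon, an inhibitor that acts with a delay after IkB alpha. On day 1 it read 7.44 and 7.09 with CLA against 5.47 and 4.11, and on day 2 it read 6.65 and 6.03 against 6.09 and 4.64. On day 4 it read 5.86 and 5.92 against 4.41 and 4.42, and on day 17 5.85 and 6.28 against 4.15 and 4.27. Every day but day 2 was without overlap, and day 2 overlapped through replicate 1 of the control group. It rose by 2.48 ± 0.45 on day 1 (a fold of 5.56, adjusted p = 0.000524), the largest daily difference among the 9 genes, and by 1.48 to 1.86 on days 3, 4, 7, 10 and 17. On day 2 its 0.98 ± 0.45 did not pass (adjusted p = 0.22), while without the control array named above it rose by 1.70 (adjusted p = 0.0206). The calls of days 3, 4, 7, 10 and 17 were each lost without at least 1 array of the same day, with adjusted p up to 0.247 on day 7.

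Nfkbiz encodes an atypical IkB protein of the nucleus that assists NF-kB at a subset of inflammatory genes. It read 8.15 and 7.48 on the CLA arrays of day 1 and 6.47 and 5.23 on the controls, 6.11 and 6.35 against 5.59 and 5.38 on day 4, and 7.12 and 7.31 against 5.53 and 5.02 on day 17. Its groups overlapped on days 2 and 7, where replicate 1 of the control group was high at 6.65 and 6.72. It rose on day 1 by 1.97 ± 0.39 (adjusted p = 0.00127), on day 10 by 1.38 ± 0.39 (adjusted p = 0.0168) and on day 17 by 1.94 ± 0.39 (adjusted p = 0.00122). Of its other sets, 1457404_at passed on day 1, by 1.57 (adjusted p = 0.000508 over all probe sets), but not on days 10 and 17. The set 1448728_a_at passed on none of these days. With the set used, days 2, 3, 4 and 7 did not pass, at 0.43 to 1.03. Without the 3 control arrays the difference of day 7 was 1.02, with 1 control array left on that day. That of day 3, where no array was left out, stayed at 1.03. The call of day 10 was lost without either of its CLA arrays or replicate 1 of its control group.

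Tnfaip3 encodes the ubiquitin-editing enzyme that shuts off signalling upstream of IKK, and it separated the diets most completely. Its 14 CLA arrays ran from 7.09 to 7.96 (median 7.41) and its 14 control arrays from 5.69 to 7.05 (median 6.09), so every CLA array was above every control array. That held for 151 genes, 0.83% of those tested, and 741 genes (4.07%) had their CLA arrays above the controls of the same day on all 7 days. The highest control value was that of day 2, replicate 1. On day 1 it stood at 7.96 and 7.56 against 6.41 and 5.84, on day 2 at 7.23 and 7.19 against 7.05 and 6.11, and on day 17 at 7.51 and 7.47 against 6.30 and 5.91. It rose by 1.64 ± 0.27 on day 1 (adjusted p = 0.000219) and by 1.27 to 1.42 on days 3, 4, 7, 10 and 17, with adjusted p up to 0.00137. On day 2 the difference was 0.63 ± 0.27 (adjusted p = 0.178), and without replicate 1 of that control group it rose by 1.10 (adjusted p = 0.011). Its 6 calls were kept in each of the 28 fits that left out 1 array. Like Nfkbie it was called on 6 days, as 711 genes (3.91%) were on at least 6. These calls are those of the probe sets used. The other set of Tnfaip3, 1450829_at, passed on no single day. It stood at 0.255 ± 0.24 on day 1 (adjusted p = 0.585 over all probe sets) and -0.02 ± 0.24 on day 3. The other set of Nfkbie, 1431843_a_at, passed on days 1, 3, 10 and 17 only.

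Birc3 encodes an inhibitor of apoptosis protein, a ubiquitin ligase of the tumour necrosis factor receptor complex that NF-kB induces. On day 1 it stood at 9.41 and 9.29 with CLA and at 7.99 and 7.36 without. On day 2 the CLA values were 8.19 and 7.78 and the control values 7.95 and 7.46, and on day 7 they were 8.71 and 8.94 against 7.91 and 7.41. The groups were apart on every day but day 2. The rise was 1.68 ± 0.21 on day 1 (a fold of 3.19, adjusted p = 1.44e-05), 0.73 ± 0.21 on day 4 (adjusted p = 0.0161), 1.17 ± 0.21 on day 7 (adjusted p = 0.000539), 0.98 ± 0.21 on day 10 (adjusted p = 0.00232) and 1.09 ± 0.21 on day 17 (adjusted p = 0.000904). On days 2 and 3 it was 0.28 and 0.54 and did not pass. The calls of days 1, 7, 10 and 17 were kept without each single array, and that of day 4 was lost without either of its CLA arrays or replicate 1 of its control group.

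The day 1 calls were also read against each control array of that day. Replicate 1 of the control group had a Gapdh 3′ to 5′ difference of 1.33, near the 1.27 and 1.31 of the CLA arrays, and replicate 2 had 0.15. Set against replicate 1 alone, 7 of the 9 genes rose, Relb by 2.06, Nfkbie by 1.79, Birc3 by 1.36, Tnfaip3 by 1.35, Nfkbiz by 1.34, Rel by 0.93 and Nfkb2 by 0.90, with adjusted p between 0.000576 and 0.0386. Set against replicate 2 alone, 6 rose, and Nfkb2, Rel and Rela did not pass. The 5 genes that rose against either array were Relb, Nfkbie, Nfkbiz, Tnfaip3 and Birc3. A lone control array was here assumed to vary like the arrays of the other groups. The Actb control probe sets gave 2.77 and 1.5 on these control arrays and 2.72 and 2.28 on the CLA arrays.

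Whether the response differed between days was tested directly. In the F test for an interaction of diet with day none of the 9 genes passed, where 9.82% of all genes did, and 2 had an unadjusted p under 0.05 in limma, Birc3 (adjusted p = 0.0507) and Relb (adjusted p = 0.147). Birc3 passed in 6 of its 9 alternatives. The difference on day 1 minus the mean difference of days 2 to 17 was 1.34 ± 0.36 for Relb (adjusted p = 0.0145) and 0.88 ± 0.23 for Birc3 (adjusted p = 0.0127). These were the 2 genes called, both higher on day 1, as were 6.18% of all genes, while 9.71% were lower on day 1. Nfkb2 had 0.61 ± 0.22 (adjusted p = 0.0665), Nfkbia 0.89 ± 0.37 (adjusted p = 0.114) and Tnfaip3 0.41 ± 0.29 (adjusted p = 0.395). Among the probe sets not used, 3 of the 4 of Nfkbia passed in this contrast, 1420089_at at 1.63, 1449731_s_at at 1.46 and 1438157_s_at at 1.2 (adjusted p = 0.0115, 0.017 and 0.0345 over all probe sets). So did 1457404_at of Nfkbiz, at 1.19 (adjusted p = 0.011), against 0.95 for the set used, which did not pass. The unused sets of Birc3 (0.44), Nfkb2 (0.49), Nfkbie (0.55) and Tnfaip3 (-0.04) did not pass. Nor did the remaining unused sets of Nfkbia (1.19) and Nfkbiz (0.25). Without the 3 control arrays the contrast of Relb was 1.30 and its call was lost. In that fit it was 1.44 for Nfkbia, 1.38 for Nfkbie and 1.41 for Nfkbiz. These last genes read high on the day 1 control array left out, which raises their contrast by construction. Between days 7, 10 and 17 and days 2, 3 and 4 no gene passed (2.83% of all genes were higher and 1.92% lower late, and 1 of the 9 had an unadjusted p under 0.05). The nearest was Birc3 at 0.56 ± 0.17 (adjusted p = 0.0763, and 0.0239 without the 3 arrays). On the control diet alone no gene differed between days in limma, with 0.115% of all genes called and none of the 9 at an unadjusted p under 0.05.

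The probe sets of a gene did not always show the same size of change. The 9 genes had 19 probe sets that name 1 gene, and 6 of them had more than 1. For Nfkbia the 5 sets lay between 0.61 and 0.85 over all 7 days, and 4 of the 5 passed. For Nfkbie the other set, 1431843_a_at, gave 0.63 against 1.68, and for Tnfaip3 1450829_at gave 0.29 against 1.28, and both passed over all probe sets (adjusted p = 0.00111 and 0.0233). For Nfkbiz 1448728_a_at gave 0.32 and 1457404_at 0.55 against 1.15, and both passed. For Birc3 1425223_at gave -0.06 ± 0.08 and did not pass (adjusted p = 0.632). That set had a mean of 3.31, near the low end of the scale. Rel, Rela and Relb rest on 1 probe set each.

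**Figure D4:**
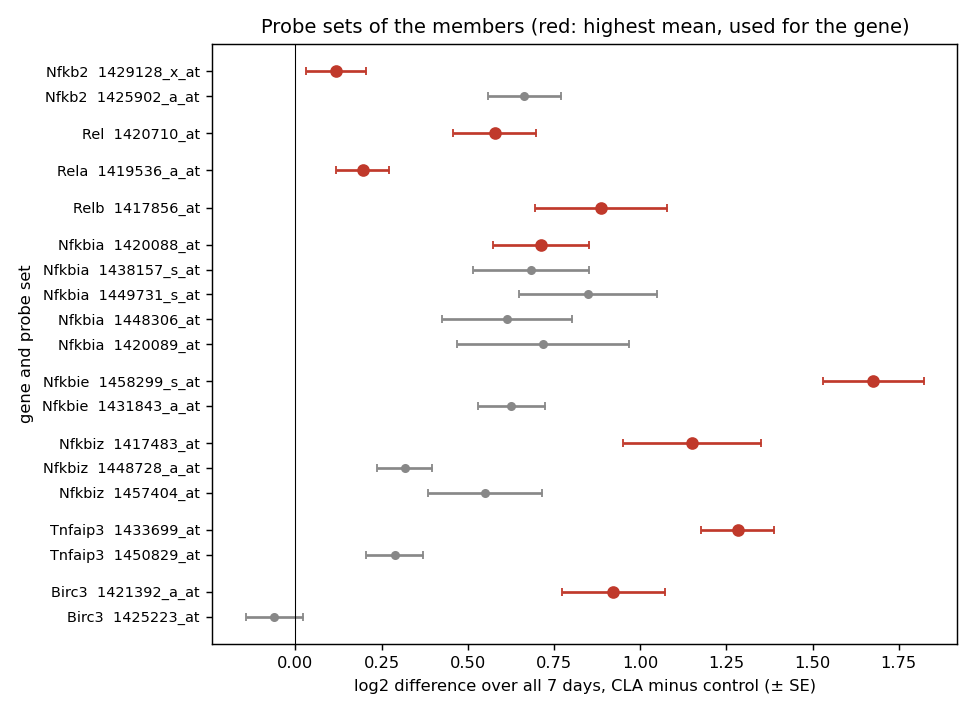
The log2 difference between CLA and control over all 7 days with its SE for each of the 19 probe sets, grouped by gene, with the set used for the gene in red. The sets of Nfkbia lie together, the set of Nfkb2 that was not used lies higher than the one used, and the second set of Birc3 lies at 0.

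The other genes of the pathway were taken from lists written from textbook knowledge, with earlier results of these data known. Their counts describe the lists and are no independent support. Their medians stand beside the -0.03 of all genes. Their counts over all 7 days stand beside the 18.7% of all genes that rose and the 19.8% that fell. Of 12 measured genes of the IKK complex and of the kinases and kinase partners upstream of it, 5 rose and 2 fell over all 7 days (median 0.09). Ikbke, an IKK-related kinase, rose by 2.05 ± 0.21 (adjusted p = 0.000105) and Irak3, a kinase-like brake on Toll-like receptor signalling, by 0.79 ± 0.08, while Tab3, an adaptor of the kinase TAK1, fell by 1.06 ± 0.08 (adjusted p = 2.7e-05). Ikbke did not pass on day 1 (0.86 ± 0.30, adjusted p = 0.0529) and rose by 1.48 to 2.77 on each later day, so it was called on day 2, when none of the 9 genes was. Ikbkb, the catalytic IKK kinase of the classical pathway, rose by 0.56 and Ikbkg, the regulatory subunit, stood at -0.01 ± 0.09.

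Of 9 measured adaptors, 7 rose and none fell (median 0.47), where 18.7% of all genes rose and 19.8% fell. They included Myd88, the adaptor of Toll-like and interleukin receptors, at 0.89 ± 0.06, Bcl10 at 0.78 ± 0.08 and Traf5 at 0.69 ± 0.14. Myd88 rose on each of the 7 days, from 1.03 ± 0.17 on day 1 to 0.85 ± 0.17 on day 17, and Traf5 stood at -0.11 ± 0.23 on day 1 and did not pass there. Of 12 other IkB proteins and brakes, 6 rose and none fell (median 0.36). Bcl3, an atypical IkB protein, rose by 1.34 ± 0.26, with 2.88 ± 0.33 on day 1 (adjusted p = 4.36e-06) and 0.23 ± 0.33 on day 2, which did not pass. Nfkbid, another nuclear IkB protein, rose by 0.89 ± 0.11 but did not pass on day 1 (0.36, adjusted p = 0.295), and Nfkbib, which encodes IkB beta, rose by 0.58 ± 0.14.

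Of 30 genes widely known as NF-kB targets, 18 rose over all 7 days and none fell (median 0.78), where 18.7% of all genes rose and 19.8% fell. Ccl2, the monocyte chemokine, rose by 4.12 ± 0.38, Cxcl2, a neutrophil chemokine, by 2.96 ± 0.38, and Cxcl10, a chemokine also driven by interferon, by 2.56 ± 0.43. On day 1, 19 of the 30 rose (7.96% of all genes), among them Ccl2 by 5.62 ± 0.73, Cxcl10 by 5.55 ± 0.39 and Cxcl2 by 5.39 ± 0.54. On day 2, 6 rose (4.84% of all genes), with Cxcl10 at 1.64 ± 0.39 and Cxcl2 at 1.64 ± 0.54, of which the latter did not pass (adjusted p = 0.0594). On day 17, 12 rose (11.5% of all genes). The members that did not pass over all 7 days include Il6 (0.87, adjusted p = 0.186), Il1b (0.72, adjusted p = 0.0945), Nos2 (-0.15) and Sod2 (-0.10).

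**Figure D5:**
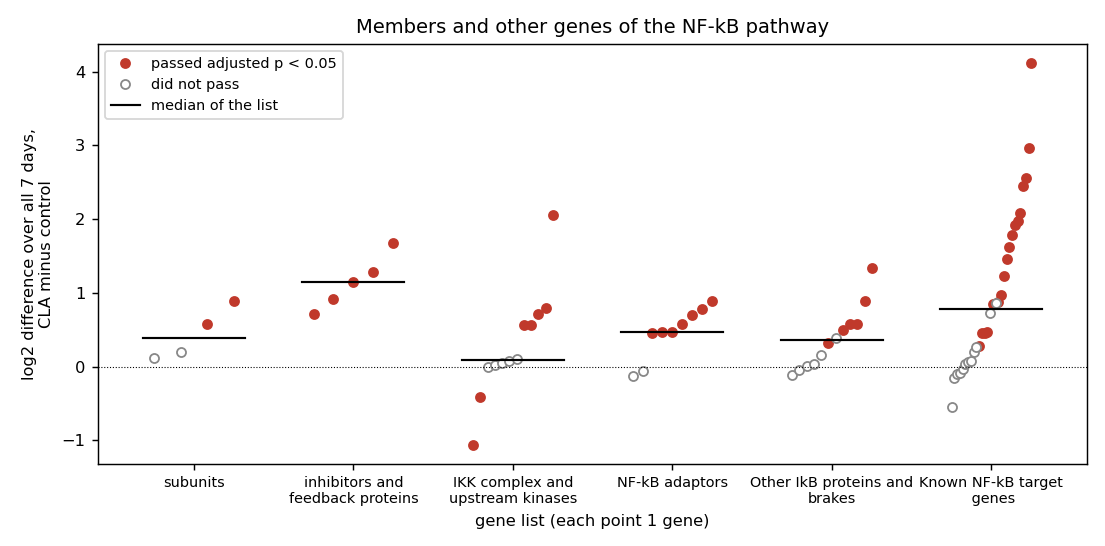
The log2 difference between CLA and control over all 7 days for each gene of 6 lists, sorted within the list; filled red points passed an adjusted p of 0.05 and the bar is the median of the list. All 5 inhibitor and feedback genes are filled, the IKK and upstream genes spread on both sides of 0, and the target genes range up to 4.12.

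Markers of cell types are given beside these results, and not all of them moved on the same days. Over all 7 days 18.7% of all genes tested rose and 19.8% fell. Of 15 macrophage markers, 13 rose over all 7 days. Their summed level was 12.98 and 13.15 (log2 of the sum) on the CLA arrays of day 1, against 12.86 and 13.00 in the controls, and it reached 15.16 and 15.23 on day 7 against 13.18 and 13.22. Over all arrays it ran from 12.98 to 15.23 with CLA and from 12.86 to 13.57 without. The number of macrophage markers that rose was 4 on day 1 (7.96% of all genes) and 9 on day 2 (4.84%). It was 11 on day 3 (11.3%), 12 on day 4 (12.8%) and 14 on each of days 7 (8.74%), 10 (10%) and 17 (11.5%). On each of days 3 and 4, 1 macrophage marker fell, where 11% and 11.3% of all genes fell. Over all 7 days Cd163 (-0.40) and Mertk (0.51) did not pass. In day 1 minus the mean of days 2 to 17, 9 of the 15 macrophage markers were lower and none higher, where 9.71% of all genes were lower. Of 5 measured neutrophil markers, 3 rose on day 1 (7.96% of all genes), and over all 7 days Csf3r rose by 0.73, Elane fell by 0.23 and the other 3 did not pass. They summed to 9.33 and 9.68 on the CLA arrays of day 1 and 9.69 and 9.50 on those of day 2, and to as little as 6.91 on day 4. Of the adipocyte markers all 9 measured fell over all 7 days, and their sum ran from 14.36 to 14.87 with CLA and from 15.11 to 15.59 without. The pads thus carried the RNA of adipocytes on every array, as labelled. None of 5 measured T cell markers passed in limma (and none at an unadjusted p under 0.05), 1 of 4 B cell markers rose and 4 of 6 endothelial markers fell. Some of these markers read low on every array. Cd3g ran from 2.78 to 3.79, Pax5 from 3.15 to 3.82 and Mpo from 3.33 to 3.9, below the array medians of 4.1 to 4.2. A change in such genes may not have been seen. In pooled tissue, fewer cells of a type and less RNA per cell cannot be told apart, and the part of these cell types in the values of the NF-kB genes was not tested.

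The genes whose values ran most like those of each member over the 28 arrays are given as a description, since all points share the arrays and the diet. Relb went with Bcl3 (Pearson r = 0.93), Rnf19b (0.92) and Rit1 (0.92). Nfkbiz went with Nfkbie (0.93) first and Nfkbie with Wdr36, Slc38a2 and Ptpn12 (0.96 each). Tnfaip3 was closest to Tnfaip2, Ier5 and Gm6377 (0.96 each), genes that themselves rose over all 7 days by 2.61, 1.99 and 2.59. Nfkbia was closest to Ngdn (0.94), Hspa4 (0.94) and Tent4b (0.93), Birc3 to Slc35f5 (0.95), Ero1a (0.95) and Stbd1 (0.94), and Rel to Katnbl1 (0.85), Cmas (0.84) and Ankrd33b (0.83). Rela and Nfkb2, which did not pass over all 7 days, shared Hgs as their nearest gene (0.91 and 0.82), and Rela was second for Nfkb2 (0.77).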

How the data were processed

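Pooled retroperitoneal fat pads (10 mice, 15 µg total RNA per labelling) were measured on 28 one-colour Affymetrix arrays. Deposited were log2 signals per probe set, summarised with RMA per the submitters' processing notes, which name no version; the genome build is not given in the sources used here. They were used as deposited, without further scaling or filter. RMA corrects background, sets the arrays to a common distribution and summarises probes, so low values are compressed. Of 45101 probe sets, 34958 name 1 gene, 932 several and 9211 none; 34754 matched the RefSeq gene table by gene ID. A gene with several probe sets is represented by the one whose mean over all arrays was highest. Array medians lay between 4.1 and 4.2.

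Tests used limma 3.58.1 in R 4.3.3, two-sided: 1 model of 14 groups (14 residual degrees of freedom), and for all 7 days the group means with day as a block (6). Adjustment was by Benjamini-Hochberg over 18194 genes. The code was tested on simulated data. Figures used matplotlib 3.10.9 in Python 3.11.15.

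Members and gene lists (kinases, adaptors, other brakes, targets, markers of macrophages, T cells, B cells, neutrophils, endothelium and adipocytes) were chosen with earlier results of these data known. Named from each pathway list were the 3 called genes with the largest effect over all 7 days, and as nearest genes the 3 with the highest correlation; Ikbkb, Ikbkg, Il6, Il1b, Nos2 and Sod2 were chosen after their values were seen. The alternatives tried are scaling, a filter on low values, the probe set, variance moderation, replicate blocks and left-out arrays or days.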

Additional observations from a re-analysis of the deposited data

Results flagged for a closer look

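For Relb the difference between CLA and control was larger on day 1 than on the later days, with day 1 minus the mean of days 2 to 17 at 1.34 ± 0.36 (SE, adjusted p = 0.0145 in limma, n = 28 arrays). For Birc3 the same contrast was 0.88 ± 0.23 (adjusted p = 0.0127). These are tests of the difference itself. Both arrays of a group may come from 1 pool, so their p-values may measure only technical spread. The other probe set of Birc3, which read low, gave 0.44 and did not pass. Without the 3 control arrays that stood apart the value of Relb was 1.30 and no longer passed (adjusted p = 0.0706). The interaction over all days did not pass for either gene (adjusted p = 0.147 for Relb and 0.0507 for Birc3), although Birc3 passed in 6 of its 9 alternatives.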

How the results depend on the processing

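Over all 7 days the 7 genes that rose did so in every alternative in which they were tested, with differences from 1.35 to 2.00 for Nfkbie, 1.04 to 1.53 for Tnfaip3 and 0.59 to 0.89 for Nfkbia; Rel was removed by the filter on a mean log2 value of at least 5. Nfkb2 passed with its most variable probe set (0.66, adjusted p = 0.00134). Of all values of single genes under the alternatives, 2726 kept their side of the threshold, 84 passed only there and 58 lost their call, and no called value changed sign. Of 28 calls on single days, 14 were kept without every single array. Without 1 array, the genes called numbered 2697 to 3590 on day 1 (6 to 8 of the 9 described), 343 to 2434 on day 2 (0 to 2), 2687 to 4308 on day 3 (1 to 5), 2846 to 4600 on day 4 (1 to 4), 2095 to 3303 on day 7 (2 to 5), 2432 to 3868 on day 10 (3 to 5) and 2352 to 3900 on day 17 (3 to 5), against 3420, 1852, 4056, 4379, 3151, 3687 and 3688 with all arrays. With 1 replicate of every group alone, 5601 to 6361 were called over all 7 days (7 to 7), against 7007. With the 4 arrays of a day alone, 591 genes and 2 of the 9 were called on day 1, 0 genes on day 2 in limma (2412 at an unadjusted p under 0.05) and 7 of the 9 on day 4. Without the 3 control arrays that stood apart, 3 of the 9 were called on day 2, 4 in day 1 minus later days, 1 in late minus days 2 to 4 and 3 in the interaction. Without replicate 1 of both diets on days 1 and 2, 2 were called on day 2, 7 on day 3, 1 in late minus days 2 to 4 (1476 genes) and 2 in the interaction. Quantile normalisation gave 1 in late minus days 2 to 4 and 1 in the interaction, and the filter gave 1 in the interaction and 2 genes for control by day. The cause of these shifts was not tested.

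The correlation of the deviations of the arrays with the same number was 0.57, 0.49, 0.23, 0.11, 0.10, 0.35 and 0.10 on the 7 days. All were positive, but the replicate numbers were not treated as pairs, since not every one was over 0.1 (0.0978 on day 7). That cut-off does not show that the arrays are unpaired, and whether those with the same number share a batch was not tested. With a replicate block all 9 were called on day 1, including Rela (0.62, adjusted p = 0.048), 4 in day 1 minus later days, 2 in the interaction (Relb, adjusted p = 0.0463, and Birc3, adjusted p = 0.0325), and 36 genes for control by day. With a replicate block within each day, chosen after seeing the data, all 9 were called on day 1 (Rela at adjusted p = 0.00476), 3037 genes were called on day 2, 7 of the 9 on day 3, 5 on day 4 and 5 in day 1 minus later days, 1734 genes and 1 of the 9 in late minus days 2 to 4, 3254 and 2 in the interaction (Relb, adjusted p = 0.0177, and Birc3, adjusted p = 0.0192), and 1894 and 2 for control by day.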
